A study of Rattus norvegicus with 8 samples.

Results

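The receptors described here were the opioid receptors Oprm1, Oprd1, Oprk1 and Oprl1, the dopamine receptors Drd1 and Drd2, the adenosine receptors Adora1, Adora2a and Adora2b, and the cannabinoid receptor Cnr1, in the stellate ganglion of the rat. They were taken as a fixed set of 10 RefSeq transcript records, 1 for each gene, out of 18314 records quantified. The set was chosen by receptor family, with earlier results of these data known. The ganglia came from 4 spontaneously hypertensive rats (SHR) and from 4 Wistar rats, the normotensive controls. All 8 animals were male and 16 weeks old, untreated as far as the labels give, and each library was the RNA of 1 right stellate ganglion. Wistar rats are outbred while SHR is an inbred strain, so a strain difference holds every genetic difference between the 2 stocks as well as the difference in blood pressure.

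Stellate ganglia supply most of the sympathetic innervation of the heart, and their neurons release noradrenaline with ATP and neuropeptide Y. Opioid receptors, the dopamine D2 receptor, the adenosine A1 receptor and the cannabinoid CB1 receptor couple to inhibitory G proteins, which lower cyclic AMP, close voltage-gated calcium channels and open inwardly rectifying potassium channels. At sympathetic endings these receptors are known to reduce noradrenaline release. The dopamine D1 receptor and the A2 adenosine receptors couple to stimulatory G proteins and raise cyclic AMP. A receptor that works at an ending in the heart is transcribed in the cell body in the ganglion, but glia, vessels and immune cells of the ganglion also transcribe some of these genes. In such whole-tissue RNA, fewer cells of a type and less RNA per cell cannot be told apart.

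Depth ran from 25820299 to 35509074 estimated counts per rat, so that 3 counts corresponded to 0.0845 to 0.116 CPM (counts scaled to library size). The sympathetic identity of the tissue was plain, with Npy at a mean of 17775 TPM (a transcript level corrected for record length and library size) and Dbh, the enzyme that makes noradrenaline, at 5265 TPM. None of the 9 sympathetic neuron records tested passed the threshold between the strains, and 1, Slc6a2, did without Wistar 1 and SHR 1. Wistar 1 and SHR 1 each lay farther from the mean of its strain than the other 3 rats of that strain, with median deviations from the strain mean of 0.178 and 0.205 on the log2 scale. The markers of small intensely fluorescent or chromaffin cells gave 3 calls in 3 tested records, described with the catecholamine genes. The other marker lists gave 1 call each for endothelium (Flt1, higher) and sensory neurons (Calca, lower) and none for satellite glia, myelinating Schwann cells, smooth muscle, leukocytes, fibroblasts, adipocytes or striated muscle. Without Wistar 1 and SHR 1, 4 myelinating Schwann cell records and 1 fibroblast record were called, all lower in SHR. Values without these 2 animals are also given for the receptors and pathway lists where a call or a value changed.

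Of the 10 records, 7 had enough counts to be tested, and none was called different between the strains by edgeR's quasi-likelihood test at a Benjamini-Hochberg adjusted p under 0.05, against 2.85% of all 13659 records tested. At an unadjusted p under 0.05 there was 1, Adora1, which stood only at rank 1109 by p among those 13659 records. The share of all records under that unadjusted cut was not counted. DESeq2 also called 1, again Adora1, where it called 6.26% of all records. No tested receptor record had all SHR values on one side of all Wistar values, which was the case for 10.6% of the records tested. The 3 records that could not be tested were Oprm1, Oprd1 and Drd1, each with few or no counts. RefSeq holds 25 records for the 10 genes in these files, 13 of them for Oprm1. When the records of each gene were summed, 8 genes could be tested and 1, Oprm1, was called, against 2.95% of 13106 genes. The limits of that call are given with the gene. The study ran DESeq2 on genes in these same libraries, and its lists of differentially expressed genes hold both Adora1 and Oprm1.

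**Figure D1:**
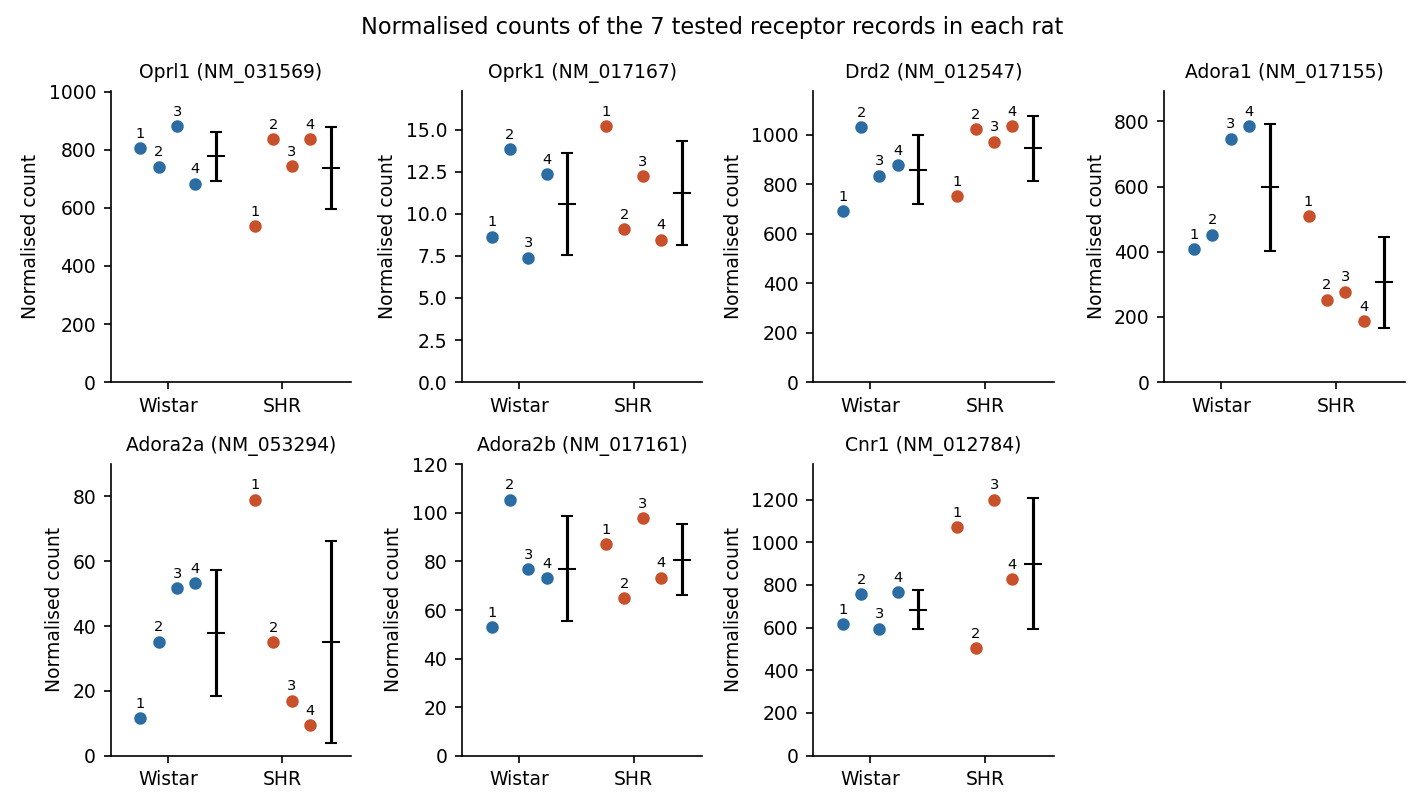
Normalised counts (y axis, from 0) of the 7 tested receptor records, with 1 point per rat numbered by replicate and the mean with SD (n = 4) as the bar beside each strain. The points of the strains overlap in every panel, and SHR 1 stands above the other SHR rats for Adora1 and Adora2a.

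The mu receptor gene Oprm1, whose product is the main target of morphine and of endogenous enkephalins and endorphins, was barely transcribed, with more reads in SHR than in Wistar once its records were pooled. The pooling was chosen after the values had been seen, and the pooled gene passed the filter on low counts only through the SHR group in which it was higher, so its values describe these libraries and are no independent test. The single record NM_013071 held an estimated count of 3.49 in Wistar 1 and was at 0 in the other 7 rats, so it could not be tested. The reads of Oprm1 were spread over other transcript records, with counts on 10 of the 13 records in at least 1 rat, on 2 or 3 records in any rat, and with 6 different records leading over the 8 rats. The records share most of their sequence, so the division among them rests on very few reads, and only the sum was compared.

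The summed count of Oprm1 was 6, 6, 5 and 2 in Wistar rats 1 to 4 and 22, 15, 17 and 20 in SHR 1 to 4, and every SHR value lay above every Wistar value. In all, 74 reads were counted in SHR and 19 in Wistar, a ratio of 4.22 per total count (exact 95% interval 2.52 to 7.41, covering counting error only). Normalised counts were 4.64 ± 1.94 in Wistar and 19.2 ± 2.63 in SHR (SD, n = 4), with a log2 fold change of 2.02 (SE 0.45, 95% interval 1.02 to 3.02) and an adjusted p of 0.0424 in edgeR's fit, given as a description. Strains did not overlap for 10.9% of the genes tested. As a level, the sum was 0.109 ± 0.0456 TPM in Wistar and 0.413 ± 0.0813 TPM in SHR.

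The call for Oprm1 was close to the threshold, since leaving out any 1 of the 8 rats raised the adjusted p to between 0.0678 and 0.128, with log2 fold changes from 1.75 to 2.19.

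**Figure D2:**
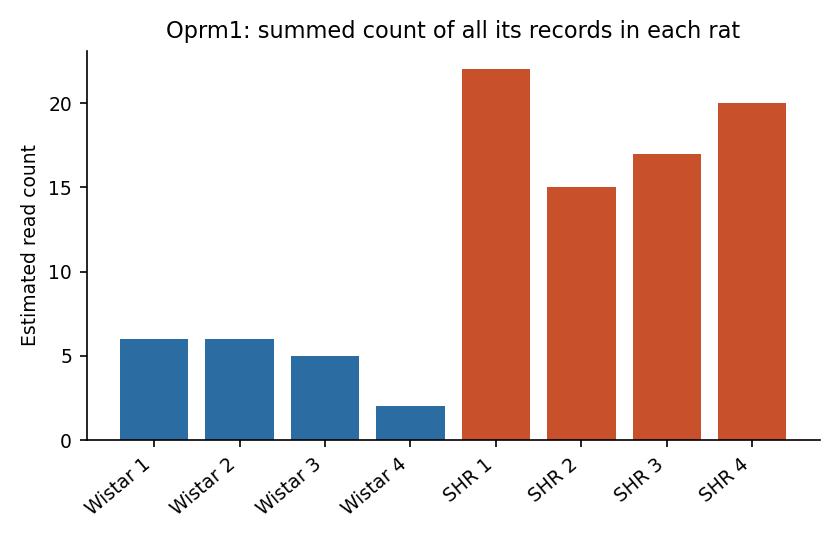
Estimated read count of Oprm1 (y axis, from 0), summed over its 13 records, as 1 bar per rat in blue for Wistar and red for SHR. The SHR bars stand at 15 to 22 reads and the Wistar bars at 2 to 6.

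RefSeq annotates Oprm1 with 2 start sites that have an upstream window in the reference, and both windows are shown because the counts of this gene could not be assigned to a single transcript form. Each holds the 250 bases before the start, read 5′ to 3′ on the plus strand of GRCr8, a build other than the rn6 transcripts that the authors used. The first lies at chr1:45565121-45565370 and the second at chr1:45585733-45585982.
Oprm1 upstream window 1: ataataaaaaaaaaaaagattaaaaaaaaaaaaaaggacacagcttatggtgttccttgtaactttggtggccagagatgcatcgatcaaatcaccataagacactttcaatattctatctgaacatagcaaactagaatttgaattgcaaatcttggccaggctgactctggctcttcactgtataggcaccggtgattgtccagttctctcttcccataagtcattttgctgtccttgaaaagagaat
Oprm1 upstream window 2: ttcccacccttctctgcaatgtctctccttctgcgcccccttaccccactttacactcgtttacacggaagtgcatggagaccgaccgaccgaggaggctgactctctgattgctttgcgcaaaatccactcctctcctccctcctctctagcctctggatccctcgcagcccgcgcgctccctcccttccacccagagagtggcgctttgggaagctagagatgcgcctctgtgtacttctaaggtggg
The first window is AT-rich, with 36.4% G and C, and only 7.46% of 33469 rat upstream windows had less. The second had 58.4% G and C, above the median of 51.2%. A search of both strands for the GC box GGGCGG, the cyclic AMP response element TGACGTCA, the TATA box TATAAA and the E box CACGTG found no match in either window, so no letters stand in capitals. These motifs occurred in 30.5%, 1.59%, 12.9% and 5.59% of all windows in that order. The reads do not tell which start was used.

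Oprl1, the receptor for nociceptin, was the opioid receptor with by far the most transcript, and its level was much alike in both strains. Its record NM_031569 had normalised counts of 805, 741, 881 and 683 in Wistar rats 1 to 4 and of 537, 837, 743 and 836 in SHR 1 to 4. Only SHR 1 fell below the Wistar range. The means were 778 ± 85.0 in Wistar and 738 ± 142 in SHR, a log2 fold change of -0.08 (SE 0.16, 95% interval -0.42 to 0.27, adjusted p = 0.846 in edgeR).

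A second Oprl1 record, NM_001318947, has the same length and received nearly the same estimated count, so the level of the gene is better read from its 3 records together. Their sum was 25.6 ± 1.94 TPM in Wistar and 24.7 ± 5.03 TPM in SHR, with a log2 fold change in counts of -0.04 (SE 0.13, 95% interval -0.33 to 0.26, adjusted p = 0.911 in edgeR). The third record, NM_001318948, took 23.6% ± 6.79 of the gene's counts in Wistar and 25.5% ± 3.49 in SHR, a share that ranged over rats from 14.1% to 30.2%.

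The remaining opioid receptors, Oprk1 for dynorphins and Oprd1 for enkephalins, were close to the limit of detection. Oprk1 record NM_017167 had 8.65, 13.8, 7.39 and 12.4 normalised counts in Wistar and 15.2, 9.08, 12.2 and 8.46 in SHR, fully overlapping ranges. Its log2 fold change was 0.10 (SE 0.43, 95% interval -0.87 to 1.06, adjusted p = 0.937 in edgeR), an interval that runs from 0.549 to 2.08 as a fold change. A second record of Oprk1, NM_001318742, had identical counts in every rat, and the sum of both gave a log2 fold change of 0.03 (SE 0.36). That summed estimated count was not whole, at 18.7 in Wistar 1, which shows that some reads were divided with a record outside the gene.

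Oprd1 record NM_012617 had estimated counts of 1, 1, 5 and 19 in Wistar and 6, 2, 15 and 4 in SHR. The totals were 26 and 27, and 1 rat of each strain held more than the rest of its strain combined. The record did not pass the filter and was not tested.

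The D2 dopamine receptor Drd2, an inhibitory autoreceptor of catecholamine neurons, was present at a steady level in both strains. Normalised counts of NM_012547 were 692, 1030, 834 and 877 in Wistar rats 1 to 4 and 752, 1022, 972 and 1034 in SHR 1 to 4, with the lowest value of each strain in replicate 1. The means were 858 ± 139 and 945 ± 131, with a log2 fold change of 0.14 (SE 0.15, 95% interval -0.19 to 0.47, adjusted p = 0.673 in edgeR), and ran from 0.04 to 0.24 on leaving out a rat. In TPM the levels were 12.3 ± 2.35 in Wistar and 13.4 ± 2.22 in SHR.

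The stimulatory D1 receptor Drd1 (NM_012546) was at the edge of detection. It had 2, 1, 3 and 7 reads in Wistar and 7, 0, 4 and 5 in SHR, 13 against 16 in all, and was not tested. Drd2 made up 99.7% of the TPM summed over both dopamine receptors.

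Adora1, the inhibitory A1 adenosine receptor, had the largest strain difference among the records that could be tested, and it was lower in SHR by its means. Normalised counts of NM_017155 were 408, 453, 747 and 785 in Wistar rats 1 to 4 and 508, 253, 278 and 186 in SHR 1 to 4. SHR 2 to 4 lay below all Wistar rats, while SHR 1 lay above Wistar 1 and 2. The means were 598 ± 195 and 306 ± 140, and in TPM 22.5 ± 7.58 and 11.3 ± 4.91. The log2 fold change was -0.97 (SE 0.32, 95% interval -1.69 to -0.24), with an unadjusted p of 0.0137, an adjusted p of 0.169 in edgeR and a 2-sided exact permutation p of 0.0857.

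The Adora1 result turned on SHR 1. Without that animal the log2 fold change was -1.33 with an adjusted p of 0.0368, and without replicate 1 of both strains it was -1.48 with an adjusted p of 0.00829, in a fit that called 7.79% of all 13707 records tested. With any other single rat left out the adjusted p stayed between 0.141 and 0.398. DESeq2 on all 8 rats gave a log2 fold change of -0.98 with an adjusted p of 0.0284.

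Adora2a, a stimulatory A2 receptor found on many vascular and immune cells, differed far more between rats than between strains. NM_053294 had 11.5, 35.1, 51.8 and 53.2 normalised counts in Wistar rats 1 to 4 and 79.0, 35.0, 16.9 and 9.40 in SHR 1 to 4. SHR 1 was the highest of all 8 rats and SHR 4 the lowest. The log2 fold change was -0.12 (SE 0.66, 95% interval -1.59 to 1.36, adjusted p = 0.950 in edgeR), and without replicate 1 of both strains it was -1.22 with an adjusted p of 0.223.

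As deviations from the strain means of log2 CPM, Adora1 and Adora2a had a Pearson r of 0.886 over the 8 rats, a description of points that share their libraries. Both were highest of their strain in Wistar 4 and SHR 1 and lowest of their strain in Wistar 1 and SHR 4, as the plot of both receptors by rat shows. SHR 1 held the most adipocyte marker transcript, 34.3 TPM against 1.71 to 14.4 TPM in the other rats, with the 14.4 TPM in Wistar 1. SHR 1 also had the highest summed fibroblast marker transcript, 1535 TPM against 490 to 1266 TPM. That sum was mostly Dcn, at a mean of 743 TPM, which was highest in SHR 1. Col1a1, Col1a2, Lum and Pdgfra were instead highest in Wistar 3. No gene of these lists was at 0 in any rat, and their part in the adenosine receptor values was not tested.

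**Figure D3:**
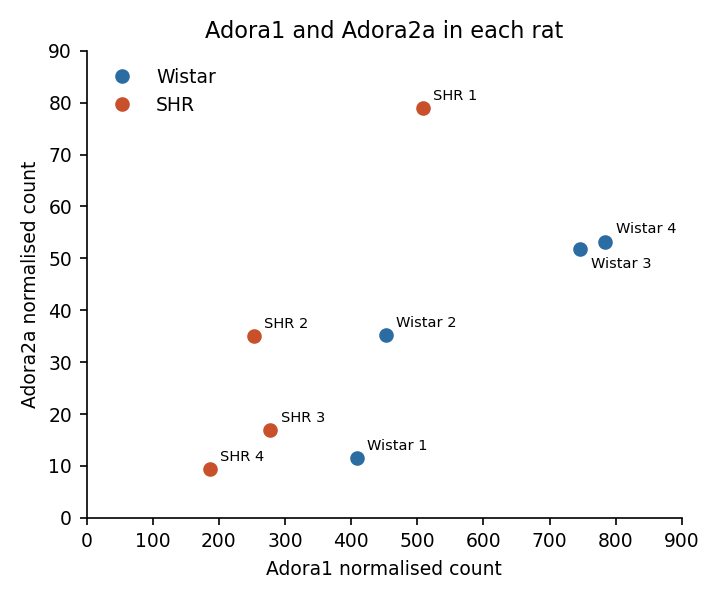
Normalised count of Adora2a (y axis) against that of Adora1 (x axis), both from 0, with 1 labelled point per rat in blue for Wistar and red for SHR. SHR 1 stands apart from SHR 2 to 4 on both axes, and Wistar 1 has the lowest value of its strain on both.

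Adora2b, the A2 receptor of low adenosine affinity, was alike in both strains. NM_017161 had 52.8, 105, 76.7 and 73.1 normalised counts in Wistar and 87.1, 64.9, 97.9 and 73.3 in SHR, so all SHR values lay within the Wistar range. The log2 fold change was 0.07 (SE 0.26, 95% interval -0.51 to 0.65, adjusted p = 0.920 in edgeR). Summed over the 3 adenosine receptors, the level was 24.9 ± 7.93 TPM in Wistar and 13.7 ± 5.49 TPM in SHR, and Adora1 made up 87.6% of it.

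Cnr1, the CB1 receptor for endocannabinoids, varied little among Wistar rats and widely among SHR. NM_012784 had 616, 756, 595 and 767 normalised counts in Wistar rats 1 to 4 and 1069, 502, 1199 and 827 in SHR 1 to 4. SHR 1, 3 and 4 lay above all Wistar rats and SHR 2 below all of them. The means were 683 ± 90.5 and 899 ± 306, with a log2 fold change of 0.40 (SE 0.24, 95% interval -0.13 to 0.92, adjusted p = 0.429 in edgeR). It was 0.60 without SHR 2 (adjusted p = 0.114), 0.23 without SHR 3 (adjusted p = 0.685) and 0.25 without Wistar 1 and SHR 1 (adjusted p = 0.649). The estimated counts of this record were not whole, which shows that some of its reads were divided with another record.

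**Figure D4:**
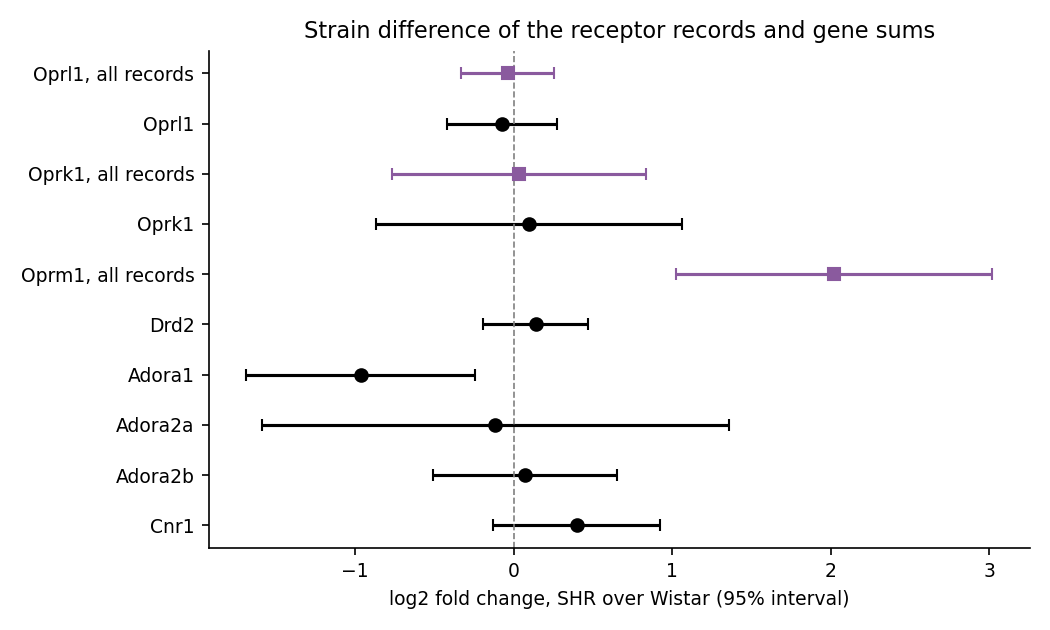
Log2 fold change of SHR over Wistar (x axis) with its 95% interval for the tested receptor records (black circles) and for the summed records of the opioid receptor genes with several records (purple squares). Only the intervals of Adora1, from -1.69 to -0.24, and of Oprm1 summed over records, from 1.02 to 3.02, leave out 0, and the latter belongs to a gene that entered the fit only through its SHR counts.

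Per length, the order of the summed genes by mean TPM over the 8 rats was Oprl1 (25.2), Adora1 (16.9), Drd2 (12.9), Cnr1 (6.44), Adora2b (1.85), Adora2a (0.545), Oprm1 (0.261), Oprd1 (0.240), Oprk1 (0.222) and Drd1 (0.0422). Of the 9 pairs of neighbours, 3 had ranges over the rats that did not overlap, namely Cnr1 above Adora2b, Adora2b above Adora2a and Oprk1 above Drd1. Oprl1 also lay above Drd2 in every rat, while Adora1 overlapped both. Within the strains the order was not the same. Adora1, at 22.5 TPM in Wistar and 11.3 TPM in SHR, was above Drd2 by its mean in Wistar and below it in SHR. Oprm1, at 0.109 TPM in Wistar, had a lower mean than Oprd1 and Oprk1 (0.220 TPM each), and at 0.413 TPM in SHR a higher one than either (0.259 and 0.224 TPM). Oprl1 held 97.2% of the opioid receptor TPM. In the dopamine and adenosine families, which hold both inhibitory and stimulatory receptors, most of the transcript belonged to an inhibitory receptor, Drd2 or Adora1.

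**Figure D5:**
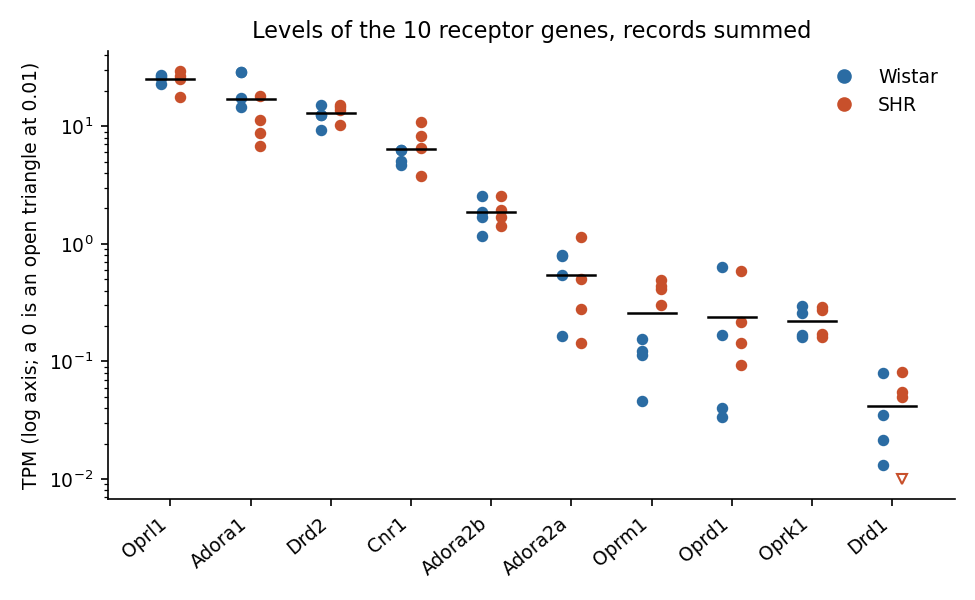
TPM on a log axis for the 10 receptor genes with their records summed, as 1 point per rat in blue for Wistar and red for SHR, and a bar at the mean of the 8 rats. Levels fall from 25.2 TPM for Oprl1 to 0.0422 TPM for Drd1, with a single rat at 0 for Drd1.

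Among 11900 records, those whose deviations from the strain means followed Adora1 most closely over the 8 rats were Nubp1, Lrrc41 and Tob2, with Pearson r of 0.991, 0.985 and 0.980. For Drd2 they were Bloc1s6, Api5 and Gprasp3 (0.954, 0.953 and 0.952). For Oprl1 they were its own record NM_001318947, which divides the same reads, Thumpd3 (0.972) and Eif2s3 (0.970). With 8 rats and so many records, r values of this size describe these libraries.

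The other genes of these pathways held 7 records called between the strains, a larger share than among all records. Ddc was counted there on 2 records. The lists were chosen with earlier results of these data known, so the share is a description and no test of the pathways. Ddc, Slc18a1, Napepld, Kcnj3 and Rgs14 had already been listed by the study as differentially expressed in these same libraries. The study also listed Daglb, Gnai3 and Acp3 (under its older symbol Acpp), which were not called here with all rats. Of 73 genes listed for ligands, enzymes, G proteins, effectors and regulators, 70 were matched to 84 records and 75 of these were tested. In edgeR, 1 record was higher and 6 were lower in SHR, or 9.33% against the 2.85% of all records, and the median log2 fold change was 0.00 for the lists and 0.01 for all records. Without any 1 rat the number called was 2 to 4, without both Wistar 1 and SHR 1 it was 12, and in DESeq2 with a length offset it was 13, where the share of all records called was also larger.

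Among ligand genes, the opioid precursors gave no call in 3 tested records. Penk, the enkephalin precursor and the most abundant of them, had 11442 normalised counts in Wistar 1 against 1113 to 2878 in the other 7 rats, and its log2 fold change of -1.75 (SE 0.64) had an adjusted p of 0.208. Without Wistar 1 and SHR 1 it was -0.48 with an adjusted p of 0.409. Pnoc, which encodes nociceptin, the ligand of Oprl1, had 408, 406, 172 and 301 normalised counts in Wistar and 525, 641, 507 and 458 in SHR. All 4 SHR values lay above the Wistar values, with a log2 fold change of 0.73 (SE 0.25, adjusted p = 0.185 in edgeR).

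For dopamine and noradrenaline synthesis, storage and uptake, 3 of 8 tested records fell in SHR. Ddc, the enzyme that turns L-DOPA into dopamine, fell on 2 of its 3 tested records, from 19813 ± 1857 to 9351 ± 830 normalised counts on NM_001270852 and from 6485 ± 666 to 3427 ± 398 on NM_001270853, with log2 fold changes of -1.08 and -0.92 and adjusted p of 0.000306 and 0.00162 in edgeR. Both Ddc calls held without any 1 rat. The third and least abundant Ddc record, NM_012545, averaged 257 in Wistar and 288 in SHR (normalised counts, log2 fold change 0.17, adjusted p = 0.850). Slc18a1, the vesicular monoamine transporter typical of chromaffin and small intensely fluorescent cells, was also lower in SHR (log2 fold change -1.61, SE 0.35, adjusted p = 0.0422), and held in 2 of 8 fits that left out a rat. All 3 tested markers of those cells were called, with Chga lower (-0.59, adjusted p = 0.0369) and Tph1, which starts serotonin synthesis, higher (1.30, adjusted p = 0.0250). The summed level of that marker list, untested Pnmt included, was 85.7 to 98.0 TPM in Wistar and 50.6 to 77.1 TPM in SHR. This sum was mostly Chga, at a mean of 66.4 TPM over all rats, against 6.7 for Slc18a1 and 1.84 for Tph1. Pnmt was at 0.441 TPM in Wistar and 0.424 TPM in SHR. The part of chromaffin and small intensely fluorescent cells in the catecholamine and receptor values was not tested. Without Wistar 1 and SHR 1 there were 4 calls in the list, the added one being Slc6a2, the noradrenaline transporter, which was higher in SHR (0.46, adjusted p = 0.0190, against 0.27 and 0.402 with all rats). Dbh and Th, the most abundant of the list, had log2 fold changes of -0.28 (SE 0.13) and -0.14 (SE 0.09) and were not called.

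Adenosine metabolism gave no call in 14 records. Acp3 was higher in SHR on both its records without a call (log2 fold changes 0.57 and 0.45, adjusted p = 0.105 and 0.236 in edgeR). The most abundant members of the list were Entpd2, an ectoenzyme that breaks down ATP at the cell surface, at 335 TPM, and Adk, the kinase that clears adenosine, at 180 TPM. Their log2 fold changes were -0.06 (SE 0.12) and 0.12 (SE 0.09).

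Of 9 endocannabinoid records, 2 fell in SHR with all rats, and 4 were called without Wistar 1 and SHR 1, in both directions. Cnrip1, whose product binds the tail of the CB1 receptor, fell from 3856 ± 155 to 2788 ± 166 normalised counts, and every SHR rat, at 2657 to 3026, lay below every Wistar rat, at 3651 to 4010. Its log2 fold change was -0.47 (SE 0.08, adjusted p = 0.0131 in edgeR) and the call held in 5 of 8 fits that left out a rat. Napepld, an enzyme that makes anandamide, fell from 124 ± 13.0 to 67.9 ± 9.46 (log2 fold change -0.87, SE 0.20, adjusted p = 0.0486), and its call was lost on leaving out any rat and without Wistar 1 and SHR 1 (adjusted p = 0.0661). Abhd4, the most abundant of the list and another enzyme of N-acylethanolamine synthesis, had a log2 fold change of 0.40 (SE 0.10, adjusted p = 0.0777). Without those 2 animals Abhd4 (0.48, adjusted p = 0.0339) and Abhd6 (0.55, adjusted p = 0.0206), both hydrolases of endocannabinoid lipids or their precursors, were higher in SHR, and Naaa, which breaks down N-acylethanolamines, was lower (-1.21, adjusted p = 0.0154).

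The 13 records of G protein alpha subunits gave no call with all rats. Without Wistar 1 and SHR 1, 2 inhibitory subunits were called lower in SHR, Gnai3 (log2 fold change -0.44, adjusted p = 0.0431) and Gnaz (-1.49, adjusted p = 0.0299), against -0.40 and -0.80 with all rats. Gnai2, an inhibitory subunit more abundant than either, went the other way without a call (0.27, adjusted p = 0.123, against 0.33 with all rats). The most abundant members of the list, Gnas, the stimulatory subunit, and Gnao1, the main inhibitory subunit of neurons, had log2 fold changes of 0.21 (SE 0.13) and -0.25 (SE 0.09). Of 12 tested effector records 1 was called. Kcnj3, a pore subunit of the potassium channel that these receptors open, was lower in SHR, with 172 ± 36.5 normalised counts in Wistar and 84.4 ± 17.8 in SHR (log2 fold change -1.03, SE 0.23, adjusted p = 0.0449). Adcy3, the most abundant adenylyl cyclase of the list, had a log2 fold change of -0.31 (SE 0.17). Of 13 records of receptor kinases, arrestins and RGS proteins 1 was called. Rgs14, which speeds the turning off of inhibitory G proteins, was higher in SHR, with 51.4 ± 6.27 in Wistar and 99.1 ± 13.7 in SHR (log2 fold change 0.95, SE 0.21, adjusted p = 0.0472). The strains did not overlap for either gene, and neither call survived leaving out any 1 rat. Without Wistar 1 and SHR 1 the adjusted p was 0.0874 for Kcnj3 and 0.111 for Rgs14, while Cacna1b, the pore of the N-type calcium channel, was called higher (0.61, adjusted p = 0.0193, against 0.40 with all rats) and the arrestin gene Arrb2 lower (-1.02, adjusted p = 0.0269, against -0.57 with all rats). Rgs4, the most abundant regulator at 577 TPM, had a log2 fold change of -0.14 (SE 0.08, adjusted p = 0.429).

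The other receptors of these families were scarce. Of 6 listed, 5 were matched, to 8 records, of which 3 were tested with no call. Cnr2, the CB2 receptor of immune cells, was the most abundant, with 159 to 442 normalised counts in Wistar and 284 to 417 in SHR on NM_001164142, and 44.7 to 263 and 131 to 375 on NM_001164143. Its log2 fold changes were 0.26 (SE 0.29) and 0.96 (SE 0.52), with adjusted p of 0.687 and 0.387. Macrophage and leukocyte markers summed to 50.2 to 81.1 TPM in Wistar, 88.0 and 94.0 TPM in SHR 1 and 2 and 20.3 and 29.7 TPM in SHR 3 and 4, and their part in these values was not tested.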

How the data were processed

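Right stellate ganglia of 4 Wistar and 4 SHR rats gave 1 library each, sequenced on 2 lanes. The authors quantified reads with Salmon 0.8.2 against rn6 RefSeq mRNA records, and per the submitters' notes FastQC 0.11.7 was used. The labels name a stranded mRNA kit, while the study's methods describe amplified cDNA. Per the file headers, the values the authors deposited are an estimated count, also known as an expected count and often fractional, a TPM and the length of each of 18314 records, and the authors did not normalise the counts between rats. Of these records, 17360 were named through RefSeq.

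Expected counts were rounded and tested with edgeR 4.0.16 (glmQLFit, glmQLFTest, TMM, filterByExpr) in R 4.3.3, with Benjamini-Hochberg adjustment over all tested records and a threshold of 0.05. Normalised counts are CPM after TMM scaling, brought back to the mean library size. The SE is the absolute log2 fold change over the root of F. DESeq2 1.42.0 was run as an alternative on records and on summed genes, while the study ran DESeq2 on genes. Further alternatives were limma 3.58.1 on log2(TPM + 0.1) and log2(TPM + 1), other scalings and filters, and ribosomal RNA removal. The replicate number was also used as a block, rats were left out, and the records of a gene were summed, the last chosen after seeing the data. Single members also had 2-sided exact permutation tests. The fits were tested on simulated data.

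The members and lists were chosen with earlier results of these data known. Named were all 10 members, list records past the threshold (up to 5 a list), the 2 most abundant records of each list (not printed for every marker list), and the 3 records most like each of the 3 most abundant members. Tph1, Flt1, Calca, Acp3, Daglb and Gnai2 were named after their values were seen. Records that share reads with another record are uncertain singly. Sequences of encoded proteins were not used here.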

Additional observations from a re-analysis of the deposited data

Results flagged for a closer look

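Within each strain of 4, a rat that stood far from the other 3 by Dixon's test was found in 2 of 25 groups of member values, where chance gives 1.25. The first was the Oprm1 record NM_013071 in Wistar 1, with a normalised count of 2.88 while the other Wistar rats were at 0. With those rats at 0, any value above 0 would have been flagged, so this flag carries no information on its size. The second was the summed Oprl1 records in SHR 1, at 1478.6 normalised counts against 2130 to 2170 in the other SHR rats.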

How the results depend on the processing

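Of 198 values of the members under alternatives, 161 kept their direction and their side of the threshold, 21 changed sign, 4 became called (Adora1) and 12 lost a call (Oprm1 summed). Called members went from 0 to 1 with DESeq2 with or without a length offset, without both replicate 1 rats and with records summed, and ranged from 0 to 1 on leaving out a rat. Members whose strains did not overlap went from 0 to 1 with records summed and to 2 without both replicate 1 rats (0 to 1 on leaving out a rat). With fewer rats the strains separate more easily by chance. The share of all records separated was not counted with rats left out, so these counts are no result about the members. The 389 records called became 851 and 782 in DESeq2 with and without the offset, 1068 without both replicate 1 rats, and 237 to 454 on leaving out a rat, with 237, 243, 238 and 248 without Wistar 2, Wistar 3, Wistar 4 and SHR 4. The 7 called list records became 13 and 11 in DESeq2 with and without the offset, 12 without both replicate 1 rats, and 2 to 4 without any 1 rat. With a replicate block the counts were 132 records and 2 list records, and Oprm1 summed had an adjusted p of 0.201. Replicate numbers did not pair the rats, since the correlations of same-numbered deviations were -0.290, -0.120, -0.158 and -0.038.

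Signs changed, for Adora2a only on leaving out a single rat, in differences that were never called. Without both replicate 1 rats the log2 fold change was -0.169 for Oprk1, 0.059 for Oprl1, -1.217 for Adora2a, -0.114 for Adora2b, and, with records summed, -0.239 for Oprk1 and 0.131 for Oprl1. On leaving out a rat it ran from -0.079 to 0.252 for Oprk1, -0.139 to 0.053 for Oprl1, -0.911 to 0.207 for Adora2a, -0.076 to 0.258 for Adora2b, and, summed, from -0.152 to 0.177 for Oprk1 and -0.098 to 0.077 for Oprl1. Oprm1 summed also lost its call with a length offset (adjusted p = 0.0511), with no low-count filter (0.0695) and without both replicate 1 rats (0.0709), kept it under the other scalings, DESeq2 and limma, and was not tested with at least 10 counts in every rat. The causes were not tested. Depth limits Oprm1, Oprd1, Oprk1 and Drd1, where a few reads decide a value.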
